A study of Mus musculus with 6 samples.

Results

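The ATF4 programme was described as a set of 35 genes of amino acid synthesis, amino acid transport and stress signalling, chosen by gene name among the 54532 genes of a count table from cultured mouse endothelial cells. All 35 names were found, and 33 passed the filter on low counts. RNA was sequenced 72 h after delivery of a lentivirus carrying either an empty vector (control, 3 libraries) or RBPMS (overexpression, 3 libraries). Both groups therefore received virus, and both were grown in a complete mouse endothelial medium with serum. RBPMS is an RNA-binding protein that takes part in splicing, and the series places the comparison in the setting of heart failure and aging. No label says where the cells came from or whether replicates are separate cultures or animals. The p-values therefore describe spread among libraries, part of which may be technical.

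ATF4 is a transcription factor of the integrated stress response. Amino acid shortage, unfolded protein in the endoplasmic reticulum (ER), haem shortage or double-stranded RNA each activate a kinase that phosphorylates the translation factor eIF2, and this lowers translation in general while favouring translation of the Atf4 mRNA. ATF4, often paired with a C/EBP family factor, then raises genes that make serine, asparagine and proline, import amino acids and charge tRNAs, and in endothelial cells the programme has been linked to serine and glycine supply and to angiogenic growth. Because ATF4 is controlled largely at translation, the level of its mRNA is not a measure of its protein.

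The C/EBP-ATF composite element, the DNA sequence through which ATF4 heterodimers are known to bind, was searched as TGATGNAA and its reverse complement TTNCATCA in RefSeq promoters (GRCm38.p6, 250 bases before to 50 after each annotated start). Promoters were listed for 30 of the 35 members, 36 promoters in all. The element was held by 9 of these promoters (25%), each of a different gene, against 3.97% of all 32851 promoters of that length. The members were chosen by name as genes of this programme, so these shares are no test of it and no result of these libraries. The genes were Asns, Chac1, Got1, Nupr1, Pycr1, Slc1a4, Slc7a11, Trib3 and Vldlr. The stretches around the element are shown for the 7 genes in which it lay wholly before the start site. Capitals mark the element, each stretch runs 5′ to 3′ on the gene's strand, and the shorter ones are those that reach into the gene model of the count table.
Slc7a11, chr3:50443627-50443705, minus strand: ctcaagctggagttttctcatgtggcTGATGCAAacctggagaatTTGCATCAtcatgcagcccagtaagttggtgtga
Asns, chr6:7693215-7693242, minus strand: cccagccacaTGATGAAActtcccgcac
Chac1, chr2:119351023-119351082, plus strand: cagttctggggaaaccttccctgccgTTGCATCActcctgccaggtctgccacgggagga
Got1, chr19:43524674-43524733, minus strand: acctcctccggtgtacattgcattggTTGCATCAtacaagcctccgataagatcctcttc
Pycr1, chr11:120643818-120643877, minus strand: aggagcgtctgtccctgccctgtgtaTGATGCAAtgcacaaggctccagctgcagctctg
Nupr1, chr7:126625563-126625590, minus strand: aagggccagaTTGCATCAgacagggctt
Vldlr, chr19:27216810-27216837, plus strand: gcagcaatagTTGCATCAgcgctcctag
Slc7a11 was the only one of these members with more than 1 match, in opposite orientations that begin 66 and 47 bases before the start site. A match is a run of letters and not a shown binding site.

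The libraries held 15779567 to 23076124 counts. Rbpms itself had 57.0, 56.8 and 55.1 CPM (counts per 1000000 counts, adjusted between libraries by the TMM method) in control replicates 1 to 3 and 131, 147 and 133 CPM with RBPMS, so the labels and the delivered gene match. Control replicate 3 stood apart: across genes, its correlation of log2 CPM with any other library was 0.954 to 0.960, while pairs among the remaining 5 reached 0.991 to 0.995. Fold changes are therefore given without that library and over all 6. Where a further control was left out as well, the control group was 1 library, only the RBPMS libraries gave the spread, and the lone control was assumed to vary like them. Summed CPM of 8 endothelial markers was 17600 and 18100 in control replicates 1 and 2, 11600 in control replicate 3 and 15400 to 16300 with RBPMS. Without control replicate 3 the sum was thus lower in every RBPMS library, but the markers did not move together. Vwf, the most abundant of the 8, had 7740 and 7820 CPM in control replicates 1 and 2 and 6040, 5430 and 5540 with RBPMS. Pecam1 (2230 to 2360 against 2010 to 2190 CPM) and Cdh5 (2630 to 2670 against 1360 to 2450) lay above every control in all RBPMS libraries. Neither was called in either fit, and Tek, Tie1 and Eng overlapped between groups. In the fit without control replicate 3, Vwf (log2 fold change -0.45, edgeR adjusted p = 1.7e-05) and Kdr (-0.21, 0.011) fell and Emcn rose (0.17, 0.047). Over all 6 libraries these genes had -0.18, -0.01 and -0.07 with no call. The part of these marker differences in the results for the members was not tested. The 6-gene marker lists of fibroblasts (5.02 to 7.79 against 5.47 to 6.02 CPM), smooth muscle cells and pericytes (0.748 to 1.48 against 0.928 to 1.48), cardiomyocytes (0.879 to 3.74 against 1.7 to 2.51) and mesothelial or epithelial cells (20.2 to 24.5 against 15.9 to 20) had low sums, the last nearly all from Msln, with Epcam, Cdh1 and Krt18 at 0. The leukocyte list summed to 42.5 to 47.2 against 54.8 to 60.0 CPM, nearly all from the lysosomal gene Cd68, which rose without control replicate 3 (log2 fold change 0.34 ± 0.0723 SE, edgeR adjusted p = 0.0054), while Adgre1 was at 0 and Ptprc at or near 0. In such bulk RNA, fewer cells expressing a gene and less of its RNA per cell cannot be told apart.

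Without control replicate 3, 5 of the 33 tested members fell with RBPMS and 0 rose. The genes that fell were the amino acid transporters Slc7a5, Slc7a11 and Slc6a9, the mitochondrial folate enzyme Mthfd1l and the mTORC1 inhibitor Ddit4 to fitted folds between 0.721 (Slc6a9) and 0.83 (Ddit4) of the control level. The mRNA of Atf4 was not among them, with a log2 fold change of 0.08 ± 0.0473 (SE). The test was edgeR's quasi-likelihood test with Benjamini-Hochberg adjustment over 14123 genes, of which 7.24% were called, 3.43% lower and 3.81% higher. At an unadjusted p under 0.05 there were 13 of 33 members and 20.9% of all genes. Over all 6 libraries 0 of 33 members passed the same test (3 at an unadjusted p under 0.05), as did 0% of 13898 genes (1050, or 7.56%, at an unadjusted p under 0.05), and DESeq2 called 56 genes (0.403%) and 0 members there. Even Rbpms, the delivered gene, was not called by edgeR over all 6 libraries (log2 fold change 1.28, adjusted p = 0.061). Among the tested members the median log2 fold change was -0.09 when that library was left out and -0.14 when it was kept, against -0.003 and -0.008 over all genes tested.

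**Figure D1:**
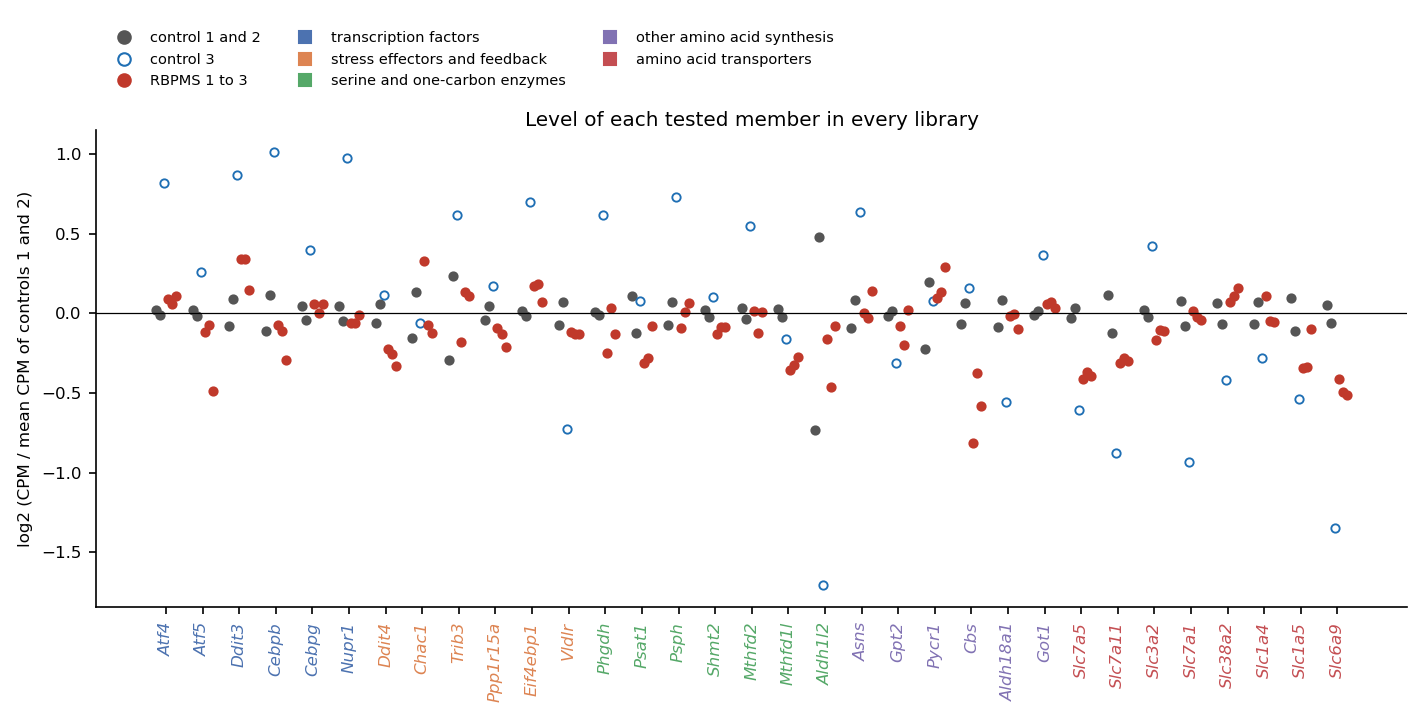
Level of each of the 33 tested members in every library, as log2 of its TMM-scaled CPM over the mean of control replicates 1 and 2, with 1 point per library and gene names coloured by role. Open points (control replicate 3) lie above the other libraries for all 6 transcription factors and below the mean of control replicates 1 and 2 for 7 of 8 transporters, while the filled control and RBPMS points mostly lie close together.

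Differences of control replicate 3 from the other controls were correlated with gene length, and the median length differed between the roles. Its level was above the mean of the other controls in 16 of 17 members of at most 3529 bases (the members' median) and below it in 12 of 16 longer ones, with median log2 differences of 0.55 and -0.47. All genes tested, divided at the same length, had medians of 0.39 and -0.25. The 6 transcription factors (median length 2175 bases) were all higher in control replicate 3, by a median of 0.84, and 7 of the 8 transporters (median length 4657 bases) were lower, with a median of -0.57. Across the 33 members Spearman's rho between length and this difference was -0.71, and -0.49 across all 13898 genes. Psph (4329 bases, 0.72) and Cebpg (5621 bases, 0.40) were among the 4 longer members above the other controls. These are descriptions of 1 library, whose genes share its preparation and depth. Whether length accounts for the differences between roles in control replicate 3 was not tested. In 12 of the 33 members the log2 fold change had opposite signs in the fits with and without this library.

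**Figure D2:**
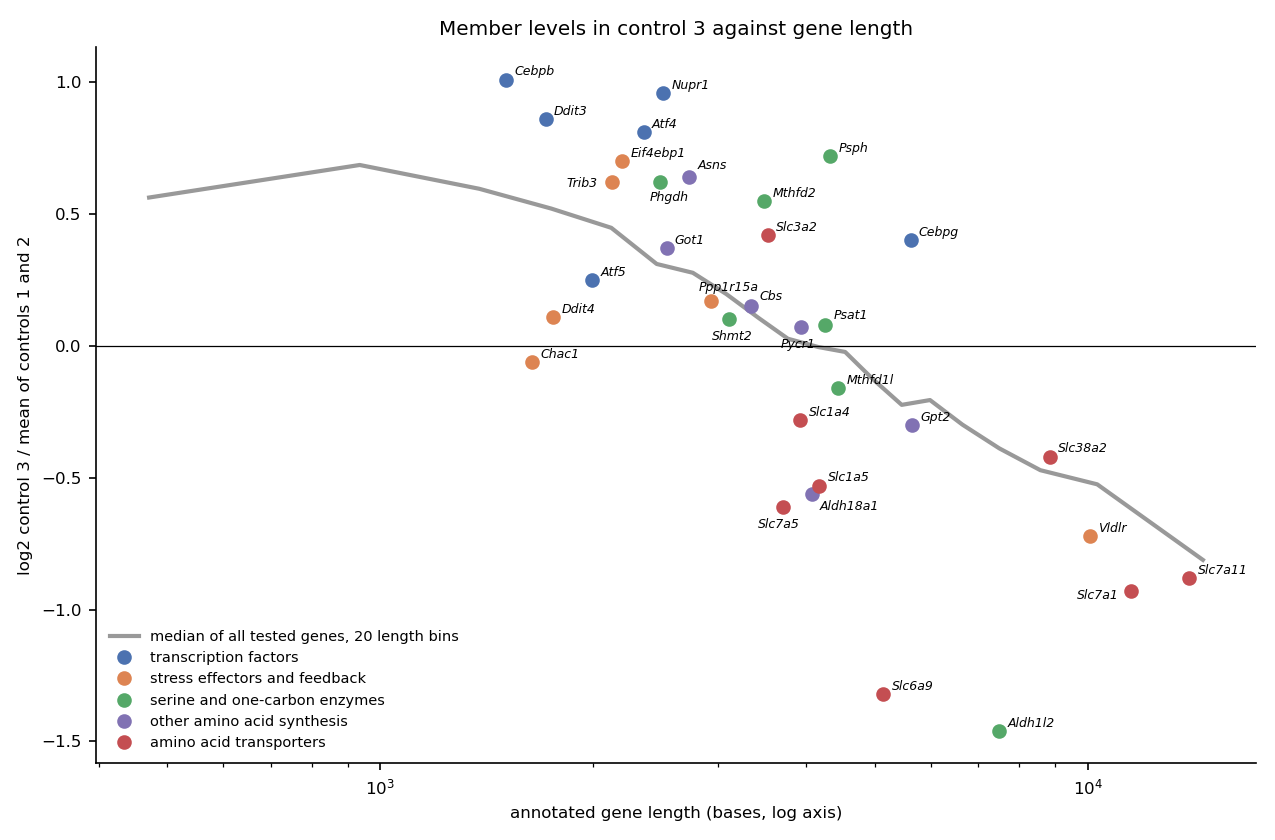
Difference between control replicate 3 and the mean of control replicates 1 and 2 (log2, vertical axis) against annotated gene length (bases, log axis) for the 33 tested members, coloured by role, with the median of all tested genes in 20 length bins as a grey line. Short members such as Cebpb lie at up to 1.01 and long ones such as Slc7a1 at -0.93, with Aldh1l2, the least abundant tested member, lowest at -1.46.

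None of the 6 transcription factors was called (2 at an unadjusted p under 0.05 in edgeR without control replicate 3). Atf4 (ENSMUSG00000042406, chromosome 15, 80255184 to 80257541, plus strand, GRCm38) had 128 and 125 CPM in control replicates 1 and 2, 222 in control replicate 3, and 134, 131 and 136 with RBPMS. The RBPMS libraries lay just above the first 2 controls and far below the third. The log2 fold change was 0.08 without control replicate 3, with a 95% interval of -0.02 to 0.18 (edgeR adjusted p = 0.38), and -0.25 with an interval of -0.79 to 0.30 over all 6 libraries (adjusted p = 0.63). Ddit3 encodes CHOP, a factor of prolonged ER stress, and had 12.2, 13.7 and 23.5 CPM in the controls and 16.3, 16.3 and 14.3 with RBPMS. It had the highest fold of any tested member without control replicate 3 (log2 0.28 ± 0.108, edgeR adjusted p = 0.13) and -0.08 ± 0.252 over all 6, where the groups overlapped. Its locus overlaps Mars, which had more counts, on the other strand.

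Cebpb and Cebpg encode C/EBP factors that pair with ATF4, Atf5 a related factor that is also translated under stress, and Nupr1 a stress-induced chromatin protein. Without control replicate 3 their log2 fold changes were -0.16, 0.04, -0.21 and -0.04, and over all 6 libraries -0.58, -0.11, -0.31 and -0.45. Only Atf5 among the 6 factors did not overlap between groups over all 6 libraries (22.2, 21.6 and 26.2 CPM in controls against 20.2, 20.8 and 15.6 with RBPMS), and it overlaps Nup62 on the other strand. Cebpb overlaps Tmem189. Per kilobase of annotated length, Cebpb had 97.3, Atf4 53.6 and Cebpg 17.3 CPM in the mean of control replicates 1 and 2, while Ddit3 and Nupr1 had 7.55 and 7.05.

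Ddit4 was the only called gene among the stress effectors and feedback regulators. Ddit4 (ENSMUSG00000020108, chromosome 10, 59949669 to 59951834, minus strand) encodes REDD1, which restrains mTORC1 and is also induced by hypoxia and glucocorticoids. It had 774, 842 and 874 CPM in controls and 693, 676 and 642 with RBPMS, and every RBPMS library lay below every control. The log2 fold change was -0.27 ± 0.0497 without control replicate 3 (edgeR adjusted p = 0.0018) and -0.31 ± 0.115 over all 6 (adjusted p = 0.59). At 461 CPM per kilobase in control replicates 1 and 2 it was the most abundant member by length.

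The other tested genes of this role were Ppp1r15a, whose product GADD34 helps eIF2 return to its unphosphorylated state (log2 fold change -0.14 without control replicate 3), the lipoprotein receptor gene Vldlr (-0.12), the translation repressor gene Eif4ebp1 (0.15), the glutathione-degrading enzyme gene Chac1 (0.06) and the pseudokinase gene Trib3 (0.03), which feeds back on ATF4. None of these 5 was called, with edgeR adjusted p from 0.14 to 0.94. With every library kept, the values in the same order were -0.20, 0.08, -0.13, 0.08 and -0.21, so that Vldlr, Eif4ebp1 and Trib3 had the opposite sign. Ppp1r15a did not overlap between groups over all 6 libraries, at 34.4, 36.5 and 39.8 CPM in controls against 33.2, 32.4 and 30.5 with RBPMS. Vldlr had 535 and 590 CPM in control replicates 1 and 2, 341 in control replicate 3 and 515 to 519 with RBPMS. Stc2, which encodes the secreted stanniocalcin 2, had 8 counts in all 6 libraries together and was not tested.

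Serine is made from a glycolytic intermediate by Phgdh, Psat1 and Psph, and Shmt2, Mthfd2, Mthfd1l and Aldh1l2 carry its one-carbon unit through mitochondrial folate. All 7 had negative log2 fold changes without control replicate 3, from -0.32 to -0.00, and 1 fell. That was Mthfd1l (ENSMUSG00000040675, chromosome 10, 3973118 to 4167081, plus strand), which makes formate for the cytosol. It had 41.6, 40.1 and 36.5 CPM in controls and 31.9, 32.6 and 33.7 with RBPMS, again with no overlap between groups. The log2 fold change was -0.32 ± 0.0734 without control replicate 3 (edgeR adjusted p = 0.0096) and -0.27 ± 0.103 over all 6 (adjusted p = 0.59). With control replicate 1 left out as well, leaving 1 control library, the fold was -0.29 and no longer called (adjusted p = 0.096).

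Psat1, the aminotransferase of the pathway, had 62.7, 53.4 and 61.4 CPM in controls and 46.8, 47.8 and 54.9 with RBPMS, and 1 RBPMS library lay above the lowest control (log2 fold change -0.22 without control replicate 3, edgeR adjusted p = 0.10). Phgdh, the first enzyme, had 42.1, 41.5 and 64.2 CPM against 35.2, 42.8 and 38.2, with overlap (-0.11). Shmt2 lay lower in all RBPMS libraries (57.2, 58.9 and 58.9 CPM against 63.4, 61.6 and 67.2), yet the difference of -0.10 on the log2 scale did not pass (edgeR adjusted p = 0.38). Mthfd2, at -0.03, and Psph, whose locus overlaps the more abundant Cct6a, at -0.00, lay near zero without control replicate 3. With control replicate 3 kept, Psat1 had -0.25, Phgdh -0.35, Shmt2 -0.14, Mthfd2 -0.24 and Psph -0.29, with none called.

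Aldh1l2 was close to the floor of the data, with 0.691, 1.6 and 0.352 CPM in controls and 1.03, 0.836 and 1.09 with RBPMS. Its log2 difference between groups was 0.20 with every library kept and -0.23 with control replicate 3 left out, where its 95% interval ran from -1.04 to 0.59. The locus overlaps the more abundant D10Wsu102e. No change could be read from these counts.

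None of the other amino acid synthesis genes was called by edgeR (1 of 6 tested, Cbs, at an unadjusted p under 0.05 without control replicate 3). Asns, the asparagine synthetase gene and a standard reporter of ATF4 activity, had 38.7, 43.7 and 64.1 CPM in controls and 41.3, 40.4 and 45.3 with RBPMS. The groups overlapped, and the log2 fold change was 0.04 with a 95% interval of -0.13 to 0.20 without control replicate 3 (edgeR adjusted p = 0.84) and -0.21 over all 6 libraries. Cbs, the cystathionine synthase gene of cysteine synthesis, had the lowest fold of any tested member in both fits. It had 5.02, 5.49 and 5.85 CPM in controls and 2.98, 4.04 and 3.5 with RBPMS. Every RBPMS library lay below every control, and the log2 fold change was -0.58 ± 0.188 without control replicate 3 (edgeR adjusted p = 0.069) and -0.64 ± 0.181 over all 6 (adjusted p = 0.59).

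Got1 (0.06), Pycr1 (0.17), Aldh18a1 (-0.04) and Gpt2 (-0.09), genes of aspartate, proline and alanine metabolism, had edgeR adjusted p from 0.61 to 0.83 without control replicate 3, and with every library kept their folds were -0.08, 0.14, 0.13 and 0.01 on the log2 scale. Pycr1 and Gpt2 were low, at 2.42 and 5.07 CPM in the mean of control replicates 1 and 2. Cth, which follows Cbs in cysteine synthesis, had 12 counts in all 6 libraries and was not tested.

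The 8 transporters held 3 of the 5 calls. Slc7a5 (ENSMUSG00000040010, chromosome 8, 121881150 to 121907694, minus strand) encodes LAT1, which exchanges glutamine for leucine and other large neutral amino acids. It had 52.6 and 54.9 CPM in control replicates 1 and 2 and 40.3, 41.6 and 40.8 with RBPMS, but 35.3 in control replicate 3. The log2 fold change was -0.39 ± 0.0673 without control replicate 3 (edgeR adjusted p = 0.00092) and -0.22 ± 0.176 over all 6 (adjusted p = 0.61). The coefficient of variation over the 3 RBPMS libraries was 1.57%, within a range of 0.466% to 18.1% over all tested members. A spread taken from 3 libraries is itself imprecise.

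Slc7a11 (ENSMUSG00000027737, chromosome 3, 49892526 to 50443614, minus strand) encodes xCT, which imports cystine in exchange for glutamate. It had 89.5, 76.1 and 45.1 CPM in controls and 66.8, 68.3 and 67.2 with RBPMS, so that control replicate 3 was the lowest library and the groups overlapped over all 6. The log2 fold change was -0.29 ± 0.0631 without control replicate 3 (edgeR adjusted p = 0.0056). With 1 control library it was -0.18 (adjusted p = 0.25, control replicate 1 left out as well) or -0.41 (control replicate 2 left out instead), and over all 6 libraries it was -0.06 ± 0.237. Its promoter, printed above, held the composite element, those listed for Ddit4, Mthfd1l and Slc6a9 did not, and the promoter of Slc7a5 was not analysed here.

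Slc6a9 (ENSMUSG00000028542, chromosome 4, 117834506 to 117875198, plus strand) encodes the glycine transporter GLYT1. It had 10.2, 9.43 and 3.87 CPM in controls and 7.37, 6.97 and 6.9 with RBPMS, again with control replicate 3 lowest. For Slc6a9 the log2 fold change was -0.47 ± 0.13 without control replicate 3 (edgeR adjusted p = 0.03) and -0.14 ± 0.343 over all 6 (adjusted p = 0.85). This call was lost in more alternatives than the other 4, while the fold stayed between -0.53 and -0.41. DESeq2 gave the same fold with an adjusted p of 0.1, and leaving out any further library gave edgeR adjusted p from 0.06 to 0.22, with 1 control library in 2 of these 5 fits. The gene had 831 counts over the 6 libraries and overlaps B4galt2, with 878, on the other strand, and no source used here says whether counting used strand.

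**Figure D3:**
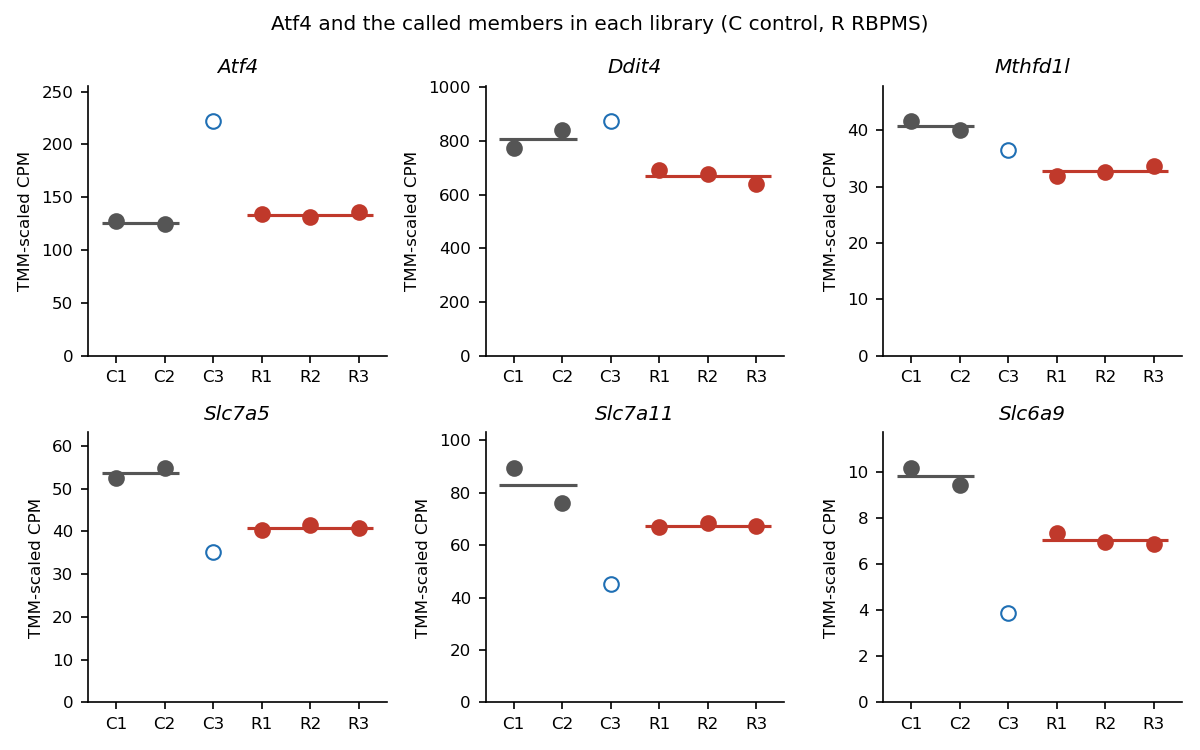
TMM-scaled CPM of Atf4 and of the 5 members called without control replicate 3 in each library (C1 to C3 control, R1 to R3 RBPMS), with lines at the mean of control replicates 1 and 2 and of the 3 RBPMS libraries. Ddit4 and Mthfd1l separate the groups in all 6 libraries, while for Slc7a5, Slc7a11 and Slc6a9 the open point of control replicate 3 lies below all 3 RBPMS libraries.

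Slc3a2 encodes the CD98 heavy chain, the common partner that carries both LAT1 and xCT to the cell surface. It had 205, 199 and 271 CPM in controls and 180, 188 and 187 with RBPMS. All RBPMS libraries lay below all controls, and the log2 fold change was -0.13 ± 0.0457 without control replicate 3, with a 95% interval of -0.22 to -0.03 (edgeR adjusted p = 0.10), and -0.28 over all 6 libraries. Slc1a5, the glutamine transporter gene ASCT2, had a log2 fold change of -0.25 (adjusted p = 0.18, edgeR) and its relative Slc1a4 0.00, against -0.09 and 0.09 over all 6 libraries. Slc38a2, which encodes the sodium-coupled neutral amino acid transporter SNAT2, was the only member above the controls in all RBPMS libraries over all 6, at 629, 647 and 670 CPM against 628, 572 and 449. The fold was 0.11 on the log2 scale when control replicate 3 was left out (edgeR adjusted p = 0.18) and 0.24 when it was kept. The arginine and lysine transporter gene Slc7a1 also had 0.24 over all 6 but -0.01 without control replicate 3, since that library held 36.6 CPM against 73.6 and 66.1 in the other controls and 67.9 to 70.6 with RBPMS.

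With every library kept, 8 of the 33 tested members had no overlap between groups, 7 lower (Atf5, Ddit4, Ppp1r15a, Shmt2, Mthfd1l, Cbs and Slc3a2) and 1 higher (Slc38a2), against 12.6% and 12.1% of all 13898 tested genes. With control replicate 3 left out, 11 members were lower and 5 higher with no overlap, against 19% and 18.3% of 14123 genes (37.4% in either direction). By role, members called lower without control replicate 3 were 0 of 6 transcription factors, 1 of 6 stress effectors, 1 of 7 serine and one-carbon enzymes, 0 of 6 other synthesis genes and 3 of 8 transporters, with medians on the log2 scale of -0.00, -0.05, -0.11, 0.00 and -0.19. With control replicate 3 kept, these medians were -0.28, -0.17, -0.25, -0.03 and -0.08, so the order of the roles differed between the fits. Whether roles differ was not tested. A fit over all 6 libraries that took out each library's trend on gene length gave log2 folds of -0.20 for Ddit4, -0.30 for Mthfd1l, -0.22 for Slc7a5, -0.28 for Slc7a11 and -0.17 for Slc6a9, and -0.16 for Atf4, with no member called (edgeR adjusted p from 0.47 to 0.78 for these 5).

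**Figure D4:**
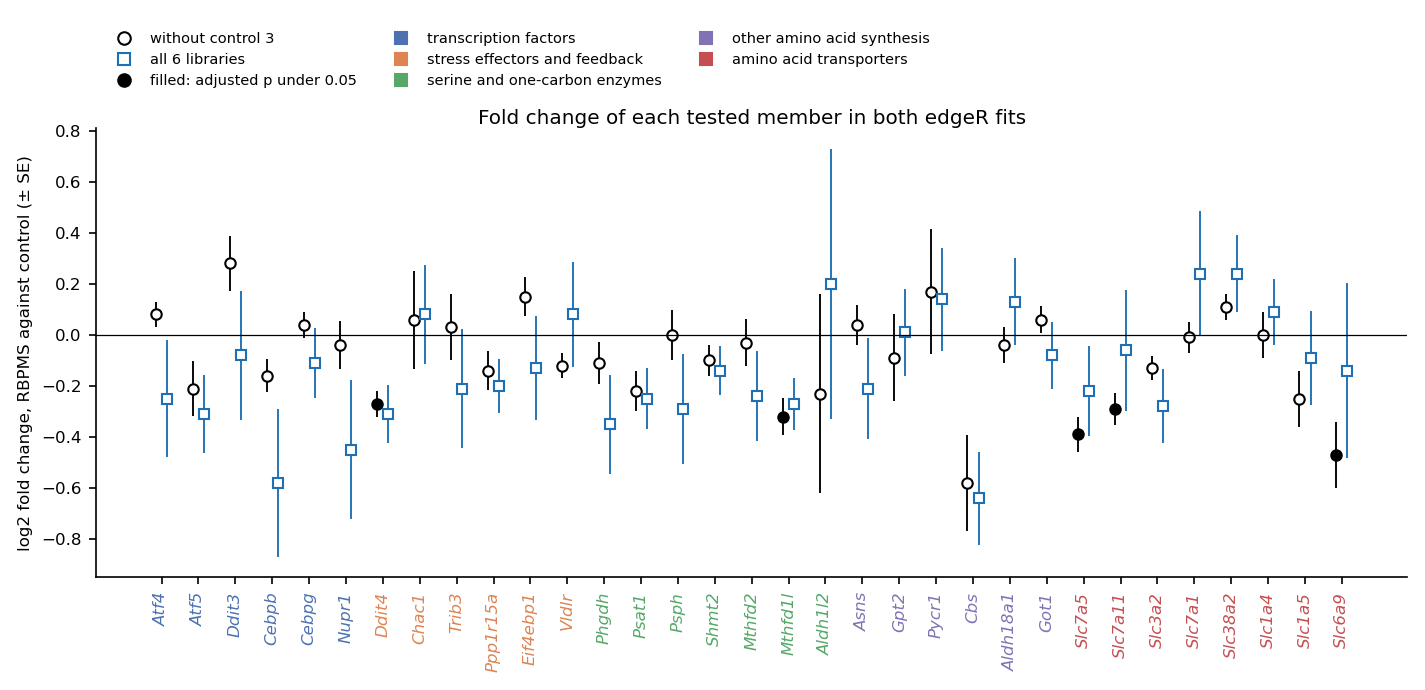
Log2 fold change of RBPMS against control with its standard error for the 33 tested members, without control replicate 3 (black circles) and over all 6 libraries (blue squares), filled where the edgeR adjusted p was under 0.05. The 5 filled circles are Ddit4, Mthfd1l, Slc7a5, Slc7a11 and Slc6a9, and no square is filled.

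Of the 9 members with the composite element in a promoter, 1 fell without control replicate 3 (Slc7a11), and their median log2 fold change was 0.03, from -0.29 to 0.17. Of the 20 tested members whose listed promoters lacked it, 3 fell (Ddit4, Mthfd1l and Slc6a9), with a median of -0.11. Of the 4 tested members with no listed promoter, 1 fell (Slc7a5). The search covers only a short window, and elements elsewhere in these genes were not looked for.

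Counts of calls in neighbouring gene lists of amino acid and stress metabolism are given without control replicate 3, where 3.81% of all tested genes were called higher and 3.43% lower. Over all 6 libraries none of their genes was called, with edgeR adjusted p from 0.57 to 0.85 for the called genes named here. Upstream of ATF4, 1 of 15 genes of the eIF2 kinases and eIF2 machinery was called: Impact, whose product inhibits the amino acid sensing kinase GCN2, rose from 34.9 CPM in control replicates 1 and 2 to 49.0 (log2 fold change 0.49 ± 0.0743, edgeR adjusted p = 0.00029, and 0.56 over all 6 libraries), and all RBPMS libraries lay above all 3 controls. A count of 1 in 15 is near the share over all genes. The 4 eIF2 kinase genes Eif2ak1, Eif2ak2, Eif2ak3 and Eif2ak4 had log2 fold changes of 0.07, 0.06, 0.14 and 0.07 (0.11, 0.25, 0.18 and 0.27 over all 6) and were not called. Among 20 cytosolic aminoacyl-tRNA synthetases, which charge tRNAs and include known ATF4 targets, 1 rose (Iars, 0.19 ± 0.0523) and 1 fell (Vars, -0.20 ± 0.0491), with a median of -0.00, and this too is near the share over all genes. Iars had 0.40 and Vars -0.21 over all 6 libraries. Iars was not called by DESeq2 (adjusted p = 0.067), and with 1 control library the folds were 0.20 and 0.17 for Iars and -0.22 and -0.18 for Vars, none called (edgeR adjusted p from 0.051 to 0.19).

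Of 18 tested genes of the other folate and methionine cycle steps 0 were called (2 at an unadjusted p under 0.05 in edgeR), with a median log2 fold change of -0.10 and 15 negative values. Mat2a, the most abundant of them and the gene of an S-adenosylmethionine synthetase, had -0.13 (edgeR adjusted p = 0.087), and -0.11 over all 6 libraries. Of 10 tested other amino acid transporters only Slc38a7, which encodes a glutamine and asparagine transporter of lysosomes, was called, and it rose (0.40 ± 0.0758, edgeR adjusted p = 0.0021, and 0.53 over all 6 libraries). Of 18 genes of the ATF6 and XBP1 arms of the ER stress response 4 fell (22.2%, against 3.43% of all tested genes) and 0 rose. These were Manf (-0.29 ± 0.0584), Pdia6 (-0.24 ± 0.0474), Hyou1 (-0.21 ± 0.0474) and Hsp90b1 (-0.19 ± 0.0457), which encode secreted or resident ER folding factors. Over all 6 libraries Manf, Pdia6 and Hsp90b1 had -0.65, -0.52 and -0.36 with no overlap between groups, and Hyou1 had -0.06 with overlap. Control replicate 3 lay above the other controls for Manf (133 against 72.4 and 71.8 CPM), Pdia6 (387 against 244 and 224) and Hsp90b1 (624 against 470 and 450). For Hyou1 it lay below them (94.0 against 135 and 130). Manf overlaps Rbm15b and Dcaf1. Hspa5, the gene of the main ER chaperone BiP, had -0.14 (edgeR adjusted p = 0.063) and -0.31 over all 6 libraries. With control replicate 1 left out as well, leaving 1 control library, 0 of the 18 genes were called, with folds of -0.29, -0.18, -0.18 and -0.16 for these 4 in edgeR (adjusted p from 0.052 to 0.14). Without RBPMS replicate 1 there were 2 calls, Manf and Pdia6.

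Of 13 tested other genes linked to ATF4, 2 rose: Sesn2, a leucine-binding inhibitor of mTORC1 that is also a p53 target (0.39 ± 0.0704, edgeR adjusted p = 0.0013), and the autophagy receptor gene Sqstm1 (0.30 ± 0.0466, adjusted p = 0.00035). They had 0.57 and 0.19 over all 6 libraries. Atf3, another stress factor, had 0.39 in both fits (edgeR adjusted p = 0.067 without control replicate 3). With control replicate 1 left out as well, leaving 1 control library, Sesn2 had 0.29 and was not called (edgeR adjusted p = 0.066). In the list of 18 tested genes of amino acid sensing and mTORC1, the lysosomal regulators Rragc (0.29 ± 0.0497) and Flcn (0.23 ± 0.0598) rose and 0 fell, with 0.19 and 0.29 over all 6 libraries. Flcn was not called when control replicate 2, RBPMS replicate 1 or RBPMS replicate 2 was also left out (0.18, 0.25 and 0.20, edgeR adjusted p from 0.054 to 0.21). Control replicate 3 lay close to the RBPMS mean for Sqstm1 (573 against 565 CPM) and Rragc (118 against 118 CPM), where groups overlapped over all 6 libraries.

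**Figure D5:**
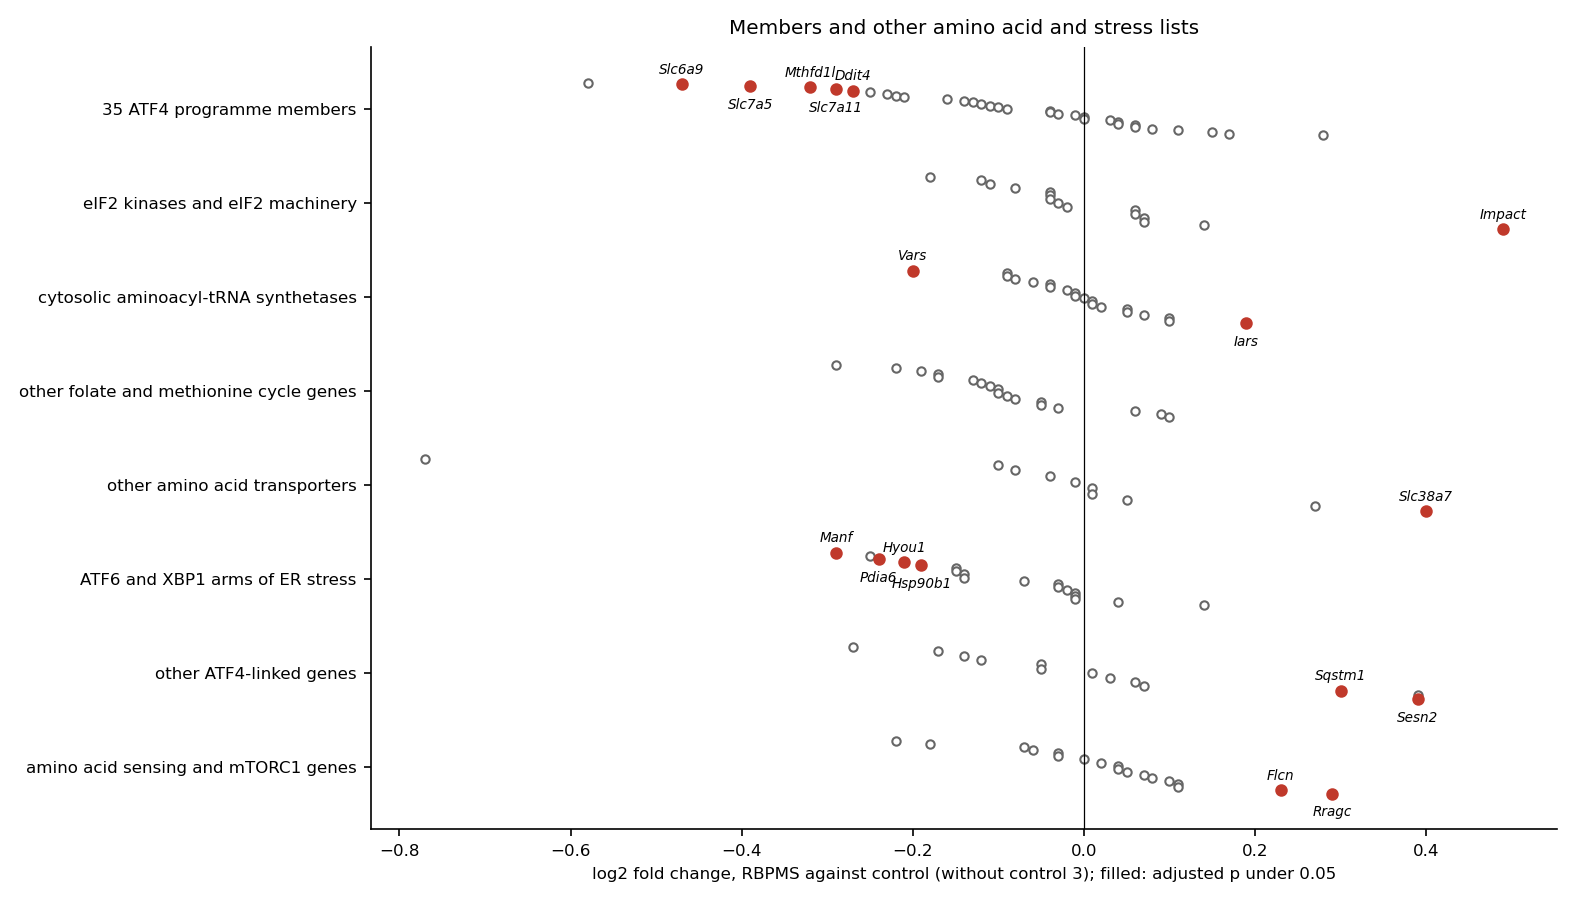
Log2 fold change without control replicate 3 of every tested gene in the member set (top row) and in 7 neighbouring lists, filled and named where the edgeR adjusted p was under 0.05. Called members and called ER stress genes lie to the left of zero, and Sesn2, Sqstm1, Rragc, Flcn, Slc38a7 and Impact lie to the right.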

How the data were processed

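RNA was taken with Trizol, ribosomal RNA was removed and libraries were prepared with an NEB kit, per the labels' protocols. The authors deposited raw counts, as whole numbers per gene. FastQC, Salmon and the build mm10 are named, without versions, per the submitters' processing notes. How reads became whole counts, and whether strand was used, is not stated there, so reads of overlapping genes may be assigned wrongly. Gene length, in bases, is another deposited column of the authors. Counts were tested as deposited in R 4.3.3 with edgeR 4.0.16 (filterByExpr by group, TMM, quasi-likelihood test, Benjamini-Hochberg over all genes, called under 0.05), over all 6 libraries and without control replicate 3. Standard errors and 95% intervals come from the fold change, its F statistic and degrees of freedom. DESeq2 1.42.0 and limma 3.58.1 were alternatives. Differences of control replicate 3 used a pseudocount of 0.1 CPM. Of a pair of identifiers named Ddit3, the one with counts was used. The script was tested on simulated data. The fit without control replicate 3 was chosen because that library was known to stand apart. Members, lists and rules were chosen with earlier results of these data known. Values in every library are given for called members, Atf4, Ddit3, Asns, Slc7a11, the highest and lowest folds and members whose sign changed between fits by over 0.3; further members with per-library values (Atf5, Ppp1r15a, Vldlr, Psat1, Phgdh, Shmt2, Slc3a2), and the genes named without a call in the lists (the eIF2 kinases, Hspa5, Atf3) and the named markers, were chosen after their values were seen. From other lists up to 4 called genes are named.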

Additional observations from a re-analysis of the deposited data

How the results depend on the processing

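Without control replicate 3, Ddit4 and Slc7a5 kept their call in 14 of 15 alternatives, Mthfd1l and Slc7a11 in 13 and Slc6a9 in 7, and all 5 kept their direction in every alternative. The exception shared by all was the test against a 1.5-fold change, with 0 members and 8 genes. Leaving out 1 more library gave 415 (without control replicate 1) to 1017 genes, with 627 without control replicate 2 and 616 without RBPMS replicate 1, and 2 (without control replicate 1: Ddit4 and Slc7a5) to 5 members lower. With no filter on low counts 7 members were lower, with Psat1 (adjusted p = 0.049) and Cbs (0.038) added. Over all 6 libraries, 5 genes were called with no filter, 56 by DESeq2 and 3 with the length trend taken out, and leaving out 1 library gave 0 to 1022 genes and 0 to 5 members, the higher values without control replicate 3.

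Members not called changed sign in several alternatives, and so did Slc7a11 and Slc6a9, called without control replicate 3, over all 6 libraries. The cause was not tested. Over all 6 libraries, leaving out 1 library in turn moved the log2 fold change of Atf4 from -0.40 to 0.08, Ddit3 -0.26 to 0.28, Cebpg -0.20 to 0.04, Trib3 -0.41 to 0.03, Eif4ebp1 -0.26 to 0.15, Asns -0.35 to 0.04, Got1 -0.15 to 0.06, Vldlr -0.12 to 0.24, Aldh1l2 -0.23 to 0.95, Aldh18a1 -0.04 to 0.27, Gpt2 -0.09 to 0.07 and Slc7a1 -0.01 to 0.43, with the opposite sign without control replicate 3 and, for Gpt2, also without RBPMS replicate 3 (-0.04). Slc7a11 ranged from -0.29 to 0.15, Slc6a9 from -0.47 to 0.10 and Slc1a5 from -0.25 to 0.05, positive without control replicate 1 and, for Slc7a11 (0.01) and Slc6a9 (0.02), without control replicate 2. Chac1 ranged from -0.08 to 0.16. With the length trend taken out Ddit3 was 0.06, Vldlr -0.09 and Gpt2 -0.06, and limma-voom gave Slc7a11 0.00 and Slc6a9 0.03. Without control replicate 3 the ranges were -0.01 to 0.08 for Cebpg, -0.09 to 0.00 for Nupr1, -0.09 to 0.22 for Chac1, -0.21 to 0.32 for Trib3, -0.08 to 0.07 for Psph, -0.07 to 0.01 for Mthfd2, -0.71 to 0.50 for Aldh1l2, -0.05 to 0.13 for Asns, -0.03 to 0.40 for Pycr1, -0.12 to 0.05 for Aldh18a1, -0.09 to 0.06 for Slc7a1 and -0.07 to 0.08 for Slc1a4, which was -0.01 with the length trend taken out.

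Deviations of same-numbered libraries from their group means had correlations of 0.0505, -0.0252 and 0.0131 over 13898 genes. The control mean includes control replicate 3, which stood apart, so these values cannot show whether the numbers pair the libraries. The labels name no pairing. A replicate block called 0 genes over all 6 libraries. Without control replicate 3 the block called 917 genes and 5 members, losing Slc6a9 (edgeR adjusted p = 0.073) and adding Psat1 (0.043). It gave Trib3 -0.01 and Asns -0.01. In that fit RBPMS replicate 3 has no control of its number and adds nothing to the fold. The fold then rests only on the same-numbered libraries that remain. With control replicate 3 and another control left out, the control group is 1 library, assumed to vary like the RBPMS libraries. Stc2, Cth and Aldh1l2 had too few counts for a difference to be read.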
